A study of Homo sapiens with 12 samples.

Results

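The EGR transcription factors EGR1, EGR2 and EGR3 and the NAB corepressors NAB1 and NAB2 are described here in cells labelled NUGC-4, the name of an established diffuse gastric cancer line, with the genotype wild type. The markers at the end of the text do not settle that identity. These 5 genes were taken by symbol from a deposited matrix of read counts for 60623 genes, and all 5 were found. RNA was collected from cells treated for 24 h with 1 µM IN10018 plus 1 µM crizotinib (combination), with 1 µM crizotinib, with 1 µM IN10018, or from control cells (4 groups, 3 libraries apiece). The target of IN10018 is FAK, the focal adhesion kinase that signals from integrins. Crizotinib blocks several receptor kinases, namely MET, ALK and ROS1. The labels do not say what vehicle the control received or whether replicate libraries are separate cultures, so p-values cover only the spread between these libraries. Libraries held 13691844 to 20489708 reads. Bulk RNA was measured, so a change in the number of expressing cells and a change in RNA per cell cannot be told apart.

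EGR1, EGR2 and EGR3 are zinc finger activators that bind GC-rich sites, and EGR1 is induced within the first hours of growth factor, adhesion or stress signals, largely through ERK and the factors SRF and ELK1 at CArG boxes of its promoter. NAB1 and NAB2 have no DNA-binding domain of their own. They bind a short repression domain shared by EGR1, EGR2 and EGR3 and bring in the CHD4 subunit of the NuRD chromatin remodelling complex, which lowers EGR-driven transcription. NAB2 is itself an EGR1 target in other cells, which makes it a feedback inhibitor. Only a single time was sampled here, so the course of induction was not measured.

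The start regions of the members are shown with the motifs they hold. RefSeq windows on GRCh38.p14 ran from 250 bases before to 50 bases after a start site and were found for 4 of the 5 members (1 each for EGR1 and NAB2, 3 each for EGR2 and NAB1, none for EGR3). Capitals mark matches, on either strand, to the CArG box, to the EGR site GCGNGGGCG or to TGACGT, the core of the cAMP response element. The EGR1 window (chr5:138465229-138465528, plus strand), the downstream EGR2 window (chr10:62816317-62816616, minus strand), the most upstream NAB1 window (chr2:190648645-190648944, plus strand) and the NAB2 window (chr12:57088864-57089163, plus strand) read as follows.
EGR1: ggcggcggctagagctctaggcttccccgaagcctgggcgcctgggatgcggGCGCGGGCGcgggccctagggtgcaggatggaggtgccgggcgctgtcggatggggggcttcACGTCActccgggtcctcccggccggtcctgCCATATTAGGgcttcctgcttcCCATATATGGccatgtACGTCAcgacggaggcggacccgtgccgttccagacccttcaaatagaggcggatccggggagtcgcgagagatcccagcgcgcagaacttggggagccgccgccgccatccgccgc
EGR2: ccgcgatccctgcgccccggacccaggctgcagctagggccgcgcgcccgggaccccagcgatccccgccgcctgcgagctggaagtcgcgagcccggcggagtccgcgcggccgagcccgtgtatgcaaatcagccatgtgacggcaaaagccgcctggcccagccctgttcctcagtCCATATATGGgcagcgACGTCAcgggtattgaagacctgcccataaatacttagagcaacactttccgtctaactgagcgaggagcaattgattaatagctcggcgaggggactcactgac
NAB1: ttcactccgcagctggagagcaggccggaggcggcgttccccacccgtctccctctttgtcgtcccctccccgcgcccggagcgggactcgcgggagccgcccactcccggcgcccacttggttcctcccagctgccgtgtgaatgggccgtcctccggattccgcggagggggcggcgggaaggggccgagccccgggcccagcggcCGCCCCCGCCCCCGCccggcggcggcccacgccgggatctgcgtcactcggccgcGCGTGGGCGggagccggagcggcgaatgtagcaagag
NAB2: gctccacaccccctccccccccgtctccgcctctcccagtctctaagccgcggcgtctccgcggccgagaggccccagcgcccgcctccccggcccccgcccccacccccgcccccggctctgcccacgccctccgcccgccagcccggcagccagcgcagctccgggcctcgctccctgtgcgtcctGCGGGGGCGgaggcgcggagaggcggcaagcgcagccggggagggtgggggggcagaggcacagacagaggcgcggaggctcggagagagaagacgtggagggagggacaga
The EGR1 window held 2 CArG boxes, at 105 and 83 bases before the start, with 2 TGACGT cores and 1 EGR site. CArG boxes were found in 1.29% of 35116 windows of the same length. The printed EGR2 window held 1 CArG box 71 bases before its start and 1 TGACGT core. The more upstream EGR2 windows, not printed, held no CArG box and no TGACGT core. No CArG box was found in the NAB1 or NAB2 windows. The printed NAB1 window held 3 EGR sites, of which 2 overlap, and the NAB2 window held 1 at 62 bases before the start, against 9.43% of all windows with at least 1. TGACGT was found in 7.98% of windows. These are matches of letters, and binding was not measured.

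Levels are given as CPM, which is the reads of a gene relative to the TMM-scaled size of its library. Of the members, EGR1, NAB1 and NAB2 passed the filter on low counts and were tested among 17096 genes, while EGR2 and EGR3 did not pass. EGR1 (ENSG00000120738, GRCh38 chromosome 5, 138465490 to 138469315) was the EGR factor with reads in quantity, 7223 over the 12 libraries. EGR2 (ENSG00000122877, chromosome 10, 62811996 to 62919900), best known from Schwann cell myelination, had 17 reads in all. These were 6 in the combination, 3 in crizotinib, 4 in IN10018 and 4 in control libraries. By exact Poisson limits at 95%, on library totals without TMM scaling, this allows up to 0.138 CPM over the 12 libraries. In the combination libraries alone the limit was 0.291 CPM. EGR3 (ENSG00000179388, chromosome 8, 22687659 to 22693302), a factor of muscle spindles and lymphocytes, had 3 reads, with 2 in combination and 1 in control libraries. On the same totals this allows up to 0.0444 CPM over the 12 libraries and 0.161 CPM in the combination alone. These limits cover counting error only. A difference between treatments in EGR2 or EGR3 was not detectable at this depth. In a fit without the filter neither gene was called in any of the 7 comparisons, with edgeR adjusted p between 0.41 and 1. Their relative EGR4 was as low, with 4, 1, 4 and 5 reads in combination, crizotinib, IN10018 and control libraries.

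EGR1 was lower in every treated group, and lowest with both drugs. The combination libraries had 12.3, 10.9 and 12.6 CPM of EGR1 and the crizotinib libraries 18.4, 19.5 and 21.2 CPM. With IN10018 there were 32.6, 30.7 and 35.7 CPM, and in control libraries 63.5, 76.8 and 101 CPM. The 4 groups did not overlap, in the order combination, crizotinib, IN10018, control from low to high, and control varied most. Against control, 71% of all genes with the combination, 51.4% with crizotinib and 32.9% with IN10018 did not overlap either. The smallest count behind these values, 157 reads in combination library 2, has an exact Poisson interval of 133 to 184 reads.

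**Figure D1:**
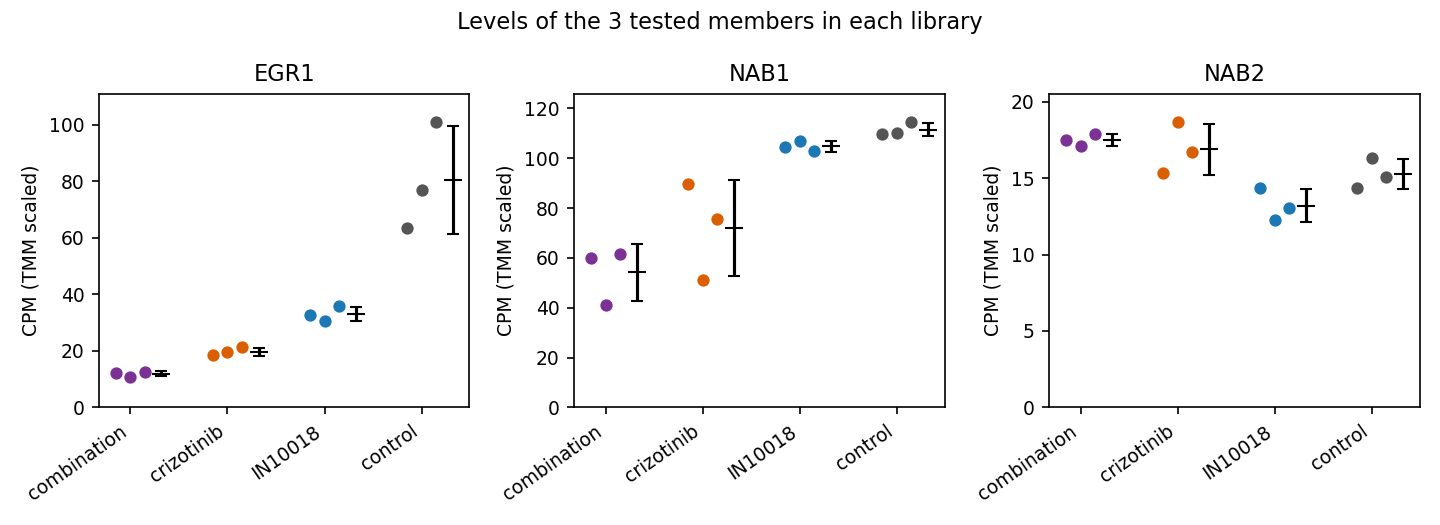
CPM of EGR1, NAB1 and NAB2 in each of the 12 libraries (points), with the group mean and SD (n = 3) beside them. EGR1 steps down over 4 groups that do not overlap, NAB1 is low in the combination and in crizotinib library 2 at 51.1 CPM, and NAB2 stays between 12.2 and 18.7 CPM.

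Against control, EGR1 fell in all 3 treated groups. With the combination EGR1 averaged 11.9 ± 0.910 CPM, against 80.4 ± 19.0 CPM in control (SD, n = 3 each), a log2 fold change of -2.75 ± 0.16 (approximate SE, edgeR adjusted p = 2e-07). That fit put the combination at 14.9% of control. Crizotinib alone gave 19.7 ± 1.39 CPM, a change of -2.03 ± 0.15 (adjusted p = 4.8e-06), or 24.5% of control. IN10018 alone gave 33.0 ± 2.54 CPM, a change of -1.29 ± 0.15 (adjusted p = 0.0020), or 40.9% of control. Counted from the lowest fold change of the 17096 genes, EGR1 ranked 21st with the combination, 25th with crizotinib and 36th with IN10018. The call held in all 21 alternatives run for each of these 3 comparisons, which share the same 3 control libraries.

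How many members were called has to be read against all tested genes. With IN10018, 1 of the 3 tested members (EGR1) was lower, where 0.158% of all genes were called lower and 0.345% higher. With crizotinib 2 of 3 (EGR1 and NAB1) were lower, where 17.6% of all genes were called lower and 20% higher. With the combination the same 2 genes were lower, where 29.1% of genes were called lower and 33.7% higher. No member was called higher against control. In the shares of genes whose 2 groups of libraries did not overlap in either direction, the background was 32.9% for IN10018, 51.4% for crizotinib and 71% for the combination against control. All 3 tested members separated from control in the IN10018 and combination groups, and EGR1 and NAB1 in the crizotinib group. Under library totals in place of TMM the median change of all genes moved up by 0.18 for the combination and 0.12 for crizotinib. The calls then split into 41.6% higher and 22% lower for the combination, and 28.2% higher and 11.4% lower for crizotinib.

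NAB1 (ENSG00000138386, chromosome 2, 190646746 to 190692766), the more abundant corepressor, was lower in the crizotinib-treated groups and close to control with IN10018. The combination libraries had 60.1, 40.9 and 61.5 CPM and the crizotinib libraries 89.5, 51.1 and 75.5 CPM. With IN10018 there were 104, 107 and 103 CPM, and in control 110, 110 and 115 CPM. The combination and crizotinib groups overlap each other and lie below both other groups, and library number 2 is the lowest in each. Among all genes, 71% (combination) and 51.4% (crizotinib) did not overlap with control, and 67.5% and 44.7% did not overlap with IN10018. NAB1 fell with the combination by 1.04 ± 0.18 on the log2 scale (edgeR adjusted p = 0.00032) and with crizotinib by 0.63 ± 0.18 (adjusted p = 0.016). Without control library 1 the crizotinib value was -0.63 and no longer passed (adjusted p = 0.055). With IN10018 the change was -0.09 ± 0.18, with a 95% interval of -0.47 to 0.29 (adjusted p = 0.88).

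Crizotinib library 2 and combination library 2 stood apart from their groups on the first principal component, which held 67.2% of the variance. Their scores were 57.8 for crizotinib library 2 against -4.6 and 10.3 for the other crizotinib libraries, and 91.4 for combination library 2 against 56.3 and 37.8. Mitochondrially encoded genes took 6.99, 4.28 and 6.62% of reads in combination libraries and 13.3, 5.21 and 9.46% in crizotinib libraries, against 11.5 to 12.7% with IN10018 and 11.0 to 11.9% in control. This share was thus below control in the whole combination group, where EGR1 and NAB1 were lowest, and its part in those results was not tested. Without both number 2 libraries, NAB1 was still called lower against control, at -0.87 for the combination and -0.43 for crizotinib. EGR1 was then at -2.69 for the combination and -2.03 for crizotinib. In EGR1 itself, combination library 2 was the lowest of its group and crizotinib library 2 the middle one. The part of these library differences in the NAB1 result was otherwise not tested.

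NAB2 (ENSG00000166886, chromosome 12, 57088894 to 57095476), the inducible corepressor, moved little and was highest in the crizotinib-treated groups. The combination libraries had 17.5, 17.1 and 17.9 CPM and the crizotinib libraries 15.3, 18.7 and 16.7 CPM. With IN10018 there were 14.3, 12.2 and 13.0 CPM, and in control 14.4, 16.3 and 15.1 CPM. The combination libraries lie above all control and all IN10018 libraries, while crizotinib and control overlap. Such separation was common, as 71% of all genes did not overlap for the combination against control and 67.5% against IN10018. IN10018 and control are separated by little, with 14.34 CPM in the highest IN10018 library and 14.37 CPM in the lowest control library. Between those 2 groups 32.9% of all genes did not overlap. Against control the change was 0.20 ± 0.12 with the combination (95% interval -0.05 to 0.44, edgeR adjusted p = 0.15), 0.15 ± 0.12 with crizotinib (-0.10 to 0.40, adjusted p = 0.32) and -0.21 ± 0.12 with IN10018 (-0.46 to 0.04, adjusted p = 0.55). Under library totals the combination value was 0.37 and passed (adjusted p = 0.017), with the shift of all genes given above.

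STAT6, a signalling transcription factor, runs on the opposite strand and its exons share the last 69 bases of NAB2 (57095408 to 57095476), 2.29% of the NAB2 exon length. STAT6 rose with the combination to 139 ± 8.42 CPM and with crizotinib to 127 ± 5.87 CPM, against 85.8 ± 5.73 CPM in control (log2 changes 0.70 ± 0.09, edgeR adjusted p = 8.2e-05, and 0.57 ± 0.09, adjusted p = 0.0020). With IN10018 it had 97.6 ± 2.54 CPM (0.19 ± 0.09, adjusted p = 0.49). The strand setting of the counting is not given in the sources used here, and the part of STAT6 reads in the NAB2 values was not tested. NAB1 overlaps 2 antisense genes with few reads, AC006460.2 at 1.79 ± 0.666 CPM in the combination and 1.00 ± 0.0543 CPM in control, and AC006460.1 at 0.104 ± 0.069 CPM and 0.217 ± 0.0902 CPM.

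**Figure D2:**
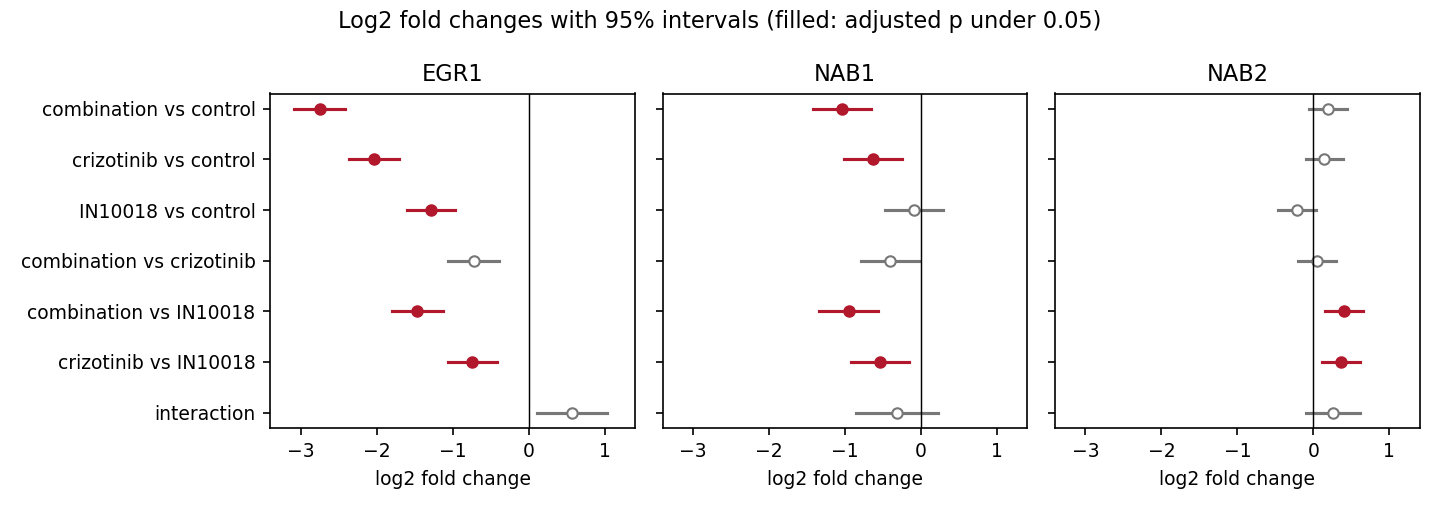
Log2 fold changes (points) with 95% intervals (lines) for EGR1, NAB1 and NAB2 in 7 comparisons, filled where the edgeR adjusted p was under 0.05. EGR1 lies below 0 in all 6 comparisons of groups and NAB2 above 0 wherever a crizotinib-treated group is on top.

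Between the treated groups, crizotinib added to IN10018 moved all 3 tested members. The combination was lower than IN10018 for EGR1 (-1.46 ± 0.16, edgeR adjusted p = 2e-04) and NAB1 (-0.95 ± 0.18, adjusted p = 0.00081), and higher for NAB2 (0.41 ± 0.12, adjusted p = 0.0089). Among all genes 27.5% were called lower and 29.7% higher here, and 67.5% had groups that did not overlap, so a call in this comparison was common. The NAB2 call ended without the filter on low counts (0.39, adjusted p = 0.060).

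IN10018 added to crizotinib gave no call in the main fit, which did not use the pairing of these libraries by replicate number. No paired fit of just the 6 libraries compared was run. EGR1 had 11.9 ± 0.910 CPM in the combination, against 19.7 ± 1.39 CPM with crizotinib alone, and the groups did not overlap (10.2% of all genes). The change was -0.72 ± 0.16 with a 95% interval of -1.06 to -0.38, an unadjusted p of 0.00041 and an edgeR adjusted p of 0.21. Only 0.0117% of the 17096 genes, 2 of them, were called in this comparison. Without the filter on low counts EGR1 was called at -0.74 (adjusted p = 0.00032), and with DESeq2 at -0.73 (adjusted p = 0.036). With a block for the replicate number it was called at -0.72 (adjusted p = 0.035). That block was shared by all 12 libraries, so it is not a paired test of these groups alone. EGR1 was also called without crizotinib library 2 (-0.73, adjusted p = 0.0060) and without both number 2 libraries (-0.66, adjusted p = 0.018). Calls were common in those settings. Without crizotinib library 2, 5640 genes were called, and without both number 2 libraries 14.4% of all genes were lower and 10.9% higher. NAB1 differed by -0.41 ± 0.18 (adjusted p = 0.22), and was called at -0.61 without crizotinib library 2 (adjusted p = 0.0058), at -0.44 without both number 2 libraries (adjusted p = 0.0012) and at -0.43 without the filter (adjusted p = 0.043). It shrank to -0.23 without crizotinib library 1 (adjusted p = 0.64) and to -0.26 without combination library 2 (adjusted p = 0.69), and the adjusted p over all alternatives ran from 0.0012 to 0.69. NAB2 differed by 0.05 ± 0.12, with a 95% interval of -0.20 to 0.30 (adjusted p = 0.81).

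Set against IN10018 at the same dose and time, crizotinib gave lower EGR1 and NAB1 and higher NAB2, with calls that depended on single libraries. The changes were -0.74 ± 0.15 for EGR1 (edgeR adjusted p = 0.020), -0.54 ± 0.18 for NAB1 (adjusted p = 0.045) and 0.36 ± 0.12 for NAB2 (adjusted p = 0.043). Background shares were 10.3% of genes lower, 11.5% higher and 44.7% without overlap. EGR1 was no longer called without IN10018 library 1 (-0.75), 2 (-0.79) or 3 (-0.70), without crizotinib library 3 (-0.81), or with only the 6 libraries compared (-0.74, adjusted p = 0.055). NAB1 and NAB2 were each no longer called without any one of control libraries 1, 2 and 3, IN10018 libraries 1, 2 and 3, crizotinib libraries 2 and 3, or combination library 1, at -0.58 to -0.34 and 0.28 to 0.42. Library totals ended the NAB1 call (-0.49, adjusted p = 0.053), the fit without the filter (0.36) and the one without both number 2 libraries (0.28) ended the NAB2 call, and the fit of only the 6 libraries compared ended both (-0.54 and 0.35).

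Departure from additivity on the log2 scale was not called for any member, where 0.0702% of all genes were called. EGR1 had the largest value of the 3 tested members, 0.57 ± 0.21 (95% interval 0.11 to 1.03, unadjusted p = 0.019, edgeR adjusted p = 0.54). A positive value means that both drugs together lowered EGR1 by less than the sum of their log2 changes. NAB1 had -0.32 ± 0.25 (adjusted p = 0.63) and NAB2 0.26 ± 0.16 (adjusted p = 0.60). The NAB1 value was -0.16 without crizotinib library 1, -0.19 without combination library 2 and -0.52 without crizotinib library 2, and the NAB2 value was 0.16 without crizotinib library 1, none of them called.

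Because a corepressor acts on the factor it binds, reads were also set against each other within a library, where scaling cancels. These are ratios of RNA reads, and protein was not measured. NAB2 moved little, so the EGR1 to NAB2 ratio largely restates the change in EGR1. EGR1 reads per NAB2 read were 0.704, 0.638 and 0.705 in the combination and 1.20, 1.05 and 1.27 with crizotinib. They were 2.27, 2.51 and 2.74 with IN10018 and 4.42, 4.70 and 6.70 in control. The 4 groups did not overlap, and the combination was the only group with fewer EGR1 than NAB2 reads in each library. On the log2 scale the ratio differed from control by -2.92 with the combination, -2.15 with crizotinib and -1.05 with IN10018. Each had an exact two-sided permutation p of 0.1, the smallest that 3 against 3 libraries allow, and 0.1 after adjustment over the 3 comparisons. NAB2 reads per NAB1 read were 0.291, 0.418 and 0.291 in the combination and 0.172, 0.365 and 0.221 with crizotinib, against 0.137, 0.114 and 0.127 with IN10018 and 0.131, 0.148 and 0.132 in control. All crizotinib-treated libraries lie above the others in this ratio. EGR1 reads per NAB1 read separated the treated groups less: they were 0.205, 0.267 and 0.205 in the combination, 0.206, 0.382 and 0.281 with crizotinib and 0.312, 0.287 and 0.347 with IN10018, against 0.579, 0.697 and 0.882 in control. Crizotinib overlaps both the combination and IN10018 in this ratio, and all treated libraries lie below control.

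**Figure D3:**
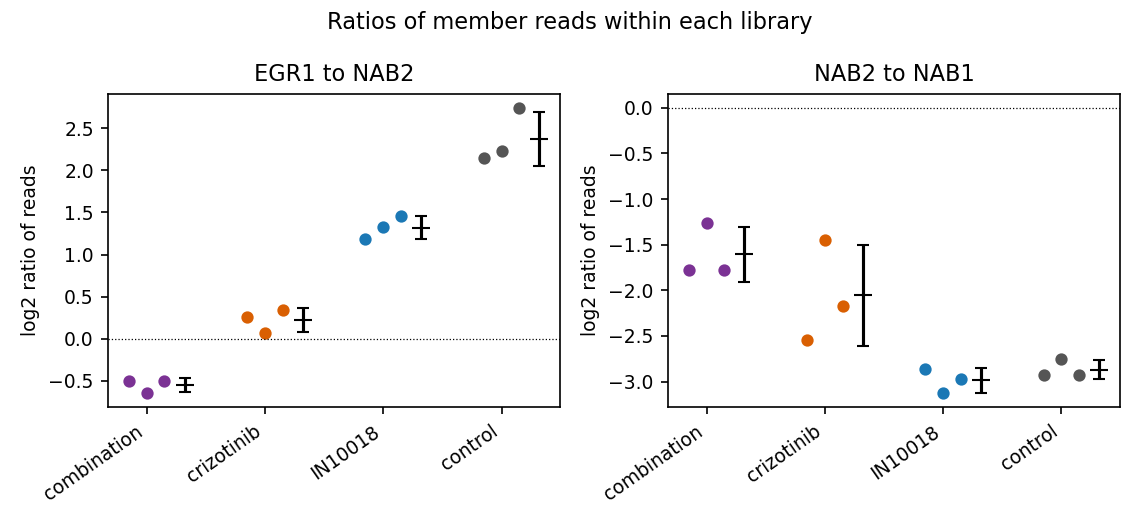
Log2 ratios of reads within each library (points) with the group mean and SD (n = 3), for EGR1 to NAB2 and for NAB2 to NAB1. EGR1 to NAB2 falls below 0 in the combination only, and NAB2 to NAB1 is higher in the combination and crizotinib libraries than in the other 6.

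Per length of annotated exons, the order of the members differed between groups. In combination libraries NAB1 had 11.1 ± 2.35, NAB2 5.81 ± 0.130 and EGR1 3.81 ± 0.290 CPM per kb. In crizotinib libraries the levels were 14.7 ± 3.98 for NAB1, 6.28 ± 0.444 for EGR1 and 5.61 ± 0.555 for NAB2, and the last pair lie within their spread. With IN10018 NAB1 had 21.4 ± 0.432, EGR1 10.5 ± 0.811 and NAB2 4.39 ± 0.354 CPM per kb. In control EGR1 had 25.6 ± 6.05 and NAB1 22.8 ± 0.547 CPM per kb, which overlap within their SD, and NAB2 had 5.07 ± 0.332.

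The genes whose log2 CPM followed each member most closely over the 12 libraries were found by the root mean square difference after centring each gene on its mean. For EGR1 the closest of 12703 genes was JUN, an AP-1 subunit, at 0.128, where the median gene was at 1.02. JUN had 9.04, 8.41 and 8.76 CPM in combination libraries, 10.7, 12.7 and 13.4 with crizotinib, 18.9, 20.6 and 27.0 with IN10018 and 43.5, 51.5 and 73.9 in control. As for EGR1, control library 3 was the highest. Next came the coactivator CITED2 at 0.281, the pseudokinase TRIB1 at 0.327 and the membrane protein gene EMP1 at 0.328. For NAB1 the closest were PLSCR4, GFM1, SRP9 and CDC27 at 0.0459 to 0.0497 (median gene 0.494). For NAB2 they were GPN2, RAB1B, CBR1 and CCDC97 at 0.0727 to 0.0757 (median gene 0.344), against a spread of NAB2 itself of 0.178. These are descriptions over libraries of the same 4 groups.

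**Figure D4:**
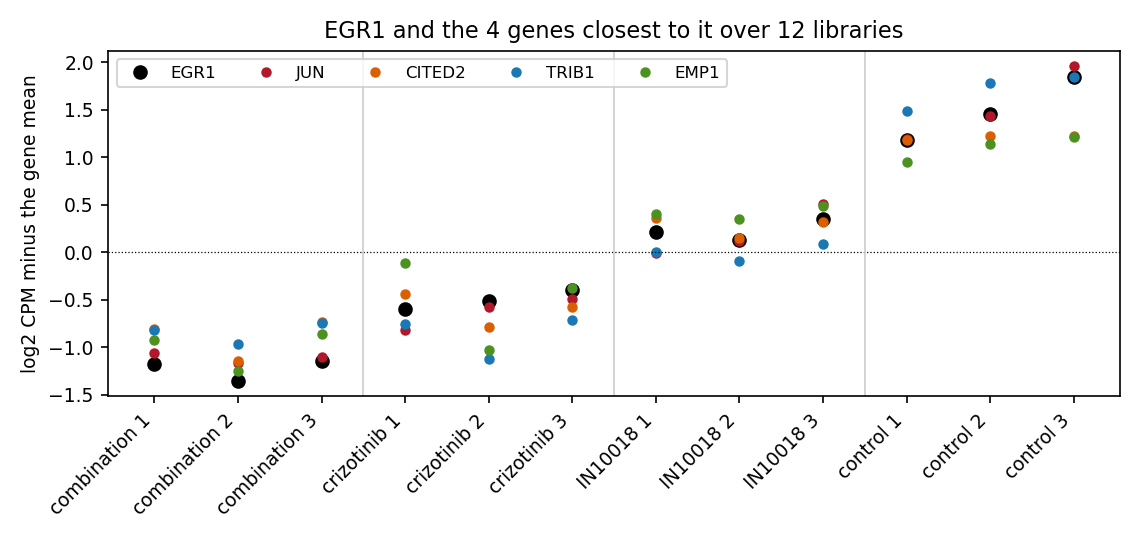
Log2 CPM minus each gene's mean, by library, for EGR1 and the 4 genes with the smallest root mean square difference from it. JUN lies closest to EGR1 over the 12 libraries, at 0.128, and all 5 genes are highest in control.

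Of 29 genes described elsewhere as EGR targets, 24 were tested, with calls in both directions. With the combination 12 were lower, 8 higher and 4 not called (median -0.39, against 0.095 for all genes), where 29.1% of all genes were called lower and 33.7% higher, so the higher count is near the background. With crizotinib 9 were lower, 4 higher and 11 not called (median -0.20, against 0.084), where 17.6% of all genes were called lower and 20% higher. With IN10018 1 was lower and 23 were not called (median -0.13, against -0.019), where 0.158% of all genes were called lower and 0.345% higher. THBS1, a matrix glycoprotein, fell with the combination by 1.82 ± 0.21 on the log2 scale (edgeR adjusted p = 5.1e-05) and the growth factor gene FGF2 by 1.59 ± 0.22 (adjusted p = 0.00011). VEGFA, the vascular growth factor, rose by 0.79 ± 0.10 (adjusted p = 6.9e-05). Under library totals 9 targets were lower and 8 higher with the combination, where 22% of all genes were called lower and 41.6% higher. With crizotinib 5 were then lower and 6 higher, where 11.4% of all genes were called lower and 28.2% higher.

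Among 15 kinases and factors upstream of EGR1, all tested, several fell where crizotinib was present. With the combination 10 were lower and 3 higher (median -0.91, against 0.095 for all genes, of which 29.1% were called lower and 33.7% higher). With crizotinib 9 were lower and 2 higher (median -0.55, against 0.084, with 17.6% of all genes lower and 20% higher). With IN10018 none was called (median -0.09, against -0.019), where 0.158% of all genes were called lower and 0.345% higher. The ternary complex factors ELK3 (-1.08 ± 0.13, edgeR adjusted p = 6.5e-05) and ELK1 (-1.03 ± 0.15, adjusted p = 0.00014) and the SRF coactivator MRTFB (-1.22 ± 0.19, adjusted p = 0.00017) fell with the combination. Without both number 2 libraries the counts were 10 and 3 for the combination, where 28.6% of all genes were called lower and 32.5% higher. For crizotinib they were 9 and 2, where 18.4% of all genes were called lower and 18.1% higher. The medians were then -0.88 for the combination and -0.36 for crizotinib. ELK1, ELK3 and MRTFB were each lowest in library number 2 of both groups. Under library totals the counts were 9 and 3 for the combination (all genes 22% lower, 41.6% higher) and 8 and 2 for crizotinib (11.4% lower, 28.2% higher). These are RNA levels, and phosphorylation of ERK or ELK1 was not measured.

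Of 13 NuRD subunits, the complex through which NAB proteins act, 5 rose and 1 fell with the combination (median 0.14), 2 rose and 1 fell with crizotinib (median 0.13), and none was called with IN10018 (median -0.060). The counts of genes that rose are near the background of 33.7% with the combination and 20% with crizotinib. The medians of all genes were 0.095 and 0.084. Called lower were 29.1% of all genes with the combination and 17.6% with crizotinib. With IN10018 0.158% were called lower and 0.345% higher. Under library totals 7 rose with the combination and 5 with crizotinib, where 41.6% and 28.2% of all genes were called higher. In each of these 1 fell, where 22% and 11.4% of all genes were called lower. Without both number 2 libraries the crizotinib median was 0.013, against 0.057 for all genes. CHD4, the remodelling ATPase that NAB2 binds, rose with the combination by 1.61 ± 0.27 on the log2 scale (edgeR adjusted p = 0.00028), and the related CHD3 by 0.36 ± 0.12 (adjusted p = 0.015). MBD3, a scaffold of the complex, rose by 1.31 ± 0.26 (adjusted p = 0.00068), and the histone-binding subunit RBBP4 fell by 0.78 ± 0.12 (adjusted p = 0.00014). For CHD4 and MBD3 library number 2 was the highest of its group, at 68.8 and 115 CPM in the combination and 39.6 and 89.3 CPM with crizotinib. WT1, a zinc finger factor that binds sites like those of EGR1, had 0.62 ± 0.189 CPM in the combination and 0.924 ± 0.0387 CPM in control and was not called (-0.59 ± 0.34, adjusted p = 0.15).

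**Figure D5:**
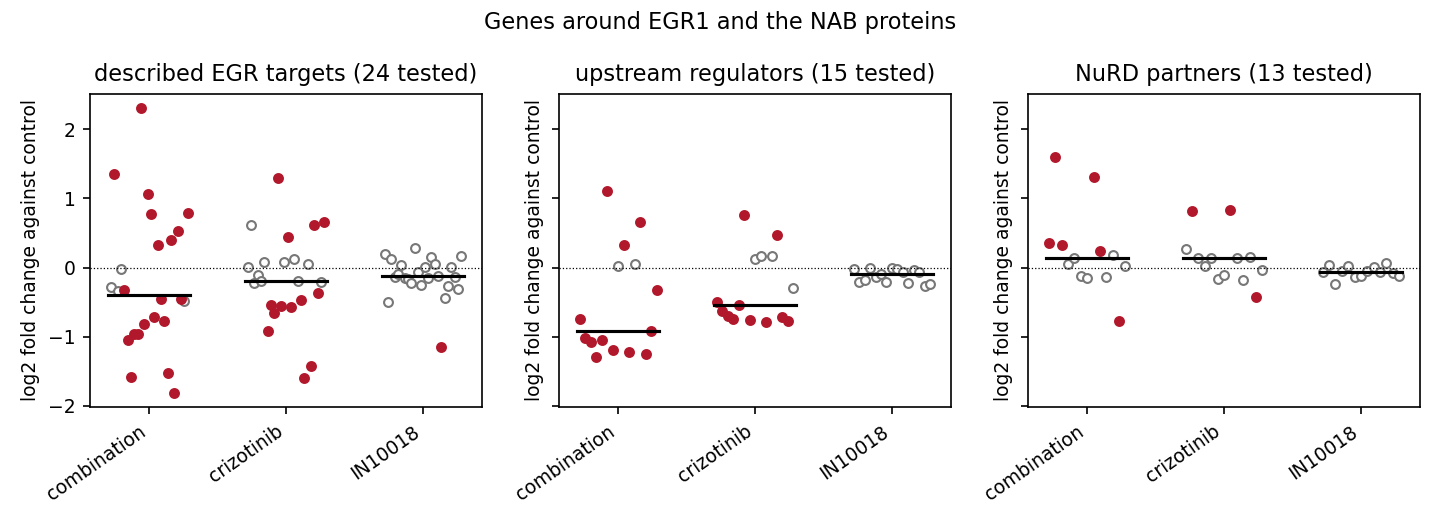
Log2 fold changes against control of described EGR targets, upstream regulators and NuRD subunits for the combination, crizotinib and IN10018 (points, filled where the edgeR adjusted p was under 0.05, with the median as a line). With IN10018 a single gene, a described EGR target, was called lower, where 0.158% of all genes were. With the combination upstream regulators have a median of -0.91.

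The line's label was checked against marker genes. Of 9 epithelial and gastric markers, 5 had at least 1 CPM in every library, among them EPCAM at 15.5 to 21.2 CPM and the keratin gene KRT8 at 1120 to 2366 CPM. KRT19 had no reads, and the gastric genes CLDN18, TFF1 and GATA6 had 4, 36 and 2 reads over the 12 libraries. The summed marker level was 2668 to 4043 CPM in the combination, 2007 to 3551 with crizotinib, 1866 to 2049 with IN10018 and 2189 to 2323 in control. Of 3 leukocyte markers CD3E had no reads and the sum stayed under 0.711 CPM. Among 4 fibroblast markers COL3A1 alone had over 1 CPM in every library, at 5069 to 6654 CPM, while COL1A2 had 12 reads. Endothelial markers summed to 33.9 to 41.3 CPM in the combination, 22.9 to 27.0 with crizotinib, 23.5 to 25.3 with IN10018 and 18.1 to 21.9 in control. Of these 3 markers VWF had 2 reads, while PECAM1 had 2885 and CDH5 2330 reads over the 12 libraries. PECAM1 and CDH5 were each over 1 CPM in every library. The adipocyte markers, checked because the description label mentions adipogenic differentiation, summed to 105 to 133 CPM in the combination, 70.0 to 117 with crizotinib, 61.4 to 70.7 with IN10018 and 68.4 to 77.3 in control, nearly all from FABP4, and ADIPOQ had no reads. The epithelial sum in the combination, and the endothelial sum in all 3 treated groups, lay above control, as did the adipocyte sum in the combination. The epithelial and adipocyte ranges of crizotinib overlapped control, and with IN10018 the epithelial sum was below control and the adipocyte range overlapped it. The part of these markers in the EGR1 and NAB1 results was not tested. With high COL3A1, no KRT19 reads and the adipogenic label, the identity of the line was not resolved from these data.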

How the data were processed

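The authors deposited raw, unnormalized read counts per gene for 12 libraries. Per the submitters' processing notes, Trimmomatic, FastQC, HISAT2, featureCounts and DESeq2 were used with builds hg38 and GRCh38, and no versions were given. Per the labels' protocols, RNA came from TRIzol extraction and library preparation used a strand-specific (directional) kit. The annotation release and the strand setting are not given in the sources used here. Replicates were compared pairwise over tested genes and all differed beyond sampling noise, with chi-square per degree of freedom from 2.27 to 99.99.

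Counts were tested with edgeR 4.0.16 in R 4.3.3: TMM scaling, filterByExpr by group (17096 genes), 1 robust quasi-likelihood fit of all 12 libraries, and Benjamini-Hochberg adjustment over all tested genes with calls at an adjusted p under 0.05. The common biological coefficient of variation was 0.139. The SE is the absolute log2 change divided by the square root of F. Depth was 13691844 to 20489708 reads per library. Ratios used 0.5 reads added to each count for the log2 values. Likeness used genes with a mean log2 CPM of at least 1 and a prior count of 2, and EGR2 and EGR3 were too low for it. Alternatives were no filter, RLE scaling, scaling by library totals, a stricter filter (at least 100 reads summed, and 1 CPM in 3 libraries), fits of just the 6 libraries compared, a block for the replicate number, DESeq2 1.42.0, limma-voom (limma 3.58.1), and leaving out each library or both number 2 libraries. Context lists under library totals and without both number 2 libraries were added after seeing the data.

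All 5 members are named in every comparison. From each list the 4 members with the smallest p for the combination against control are named, and for each member the 4 closest genes. The upstream genes called higher with the combination are named in addition. Some genes that this rule picks are not reported here. The members and lists were chosen with earlier results of these data known. The procedure was tested on simulated counts drawn independently for each gene and library. That simulation held no shift shared by many genes of a library, so it cannot speak to the number 2 libraries. Replicate numbers were taken to pair the crizotinib and combination libraries, whose same-number residuals correlated at 0.22, 0.62 and 0.27, although crizotinib library 1 correlated at 0.42 with combination library 3. Over all pairs of groups, 8 of 18 same-number correlations were above 0.1, so no other comparison was taken as paired. The main fit did not use the pairing, and the block was 1 replicate term shared by all 12 libraries. Exon lengths and positions came from GENCODE 29 on GRCh38, and start windows from RefSeq on GRCh38.p14.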

Additional observations from a re-analysis of the deposited data

How the results depend on the processing

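Every call of EGR1 against control held under all alternatives, at -2.89 to -2.57 with the combination, -2.16 to -1.89 with crizotinib and -1.40 to -1.12 with IN10018. The number of members called against crizotinib for the combination was 0 as reported, and became 2 without the filter, 1 with a replicate block, 1 with DESeq2 and 2 without both number 2 libraries. It ranged from 0 to 2 when each library was left out. For crizotinib against IN10018 it was 3, and 0 with only the 6 libraries compared (range 0 to 3 with each library left out). For crizotinib against control it was 2 (range 1 to 2). NAB2 for the combination against crizotinib changed sign to -0.023 without crizotinib library 1, with neither value called (range -0.023 to 0.13 with each library left out). Calls over all genes moved most for the combination against crizotinib, where 2 genes became 5640 without crizotinib library 2, 4352 without both number 2 libraries, 1744 without the filter, 94 with the block and 21 with DESeq2. For IN10018 against control 86 became 2193 with only the 6 libraries compared, 864 without both number 2 libraries, 379 without the filter, 231 with the block, 199 with DESeq2 and 7 to 223 with each library left out. For crizotinib against IN10018 3738 became 4 with only the 6 libraries compared, 5669 with the block and 13 to 6383 with each library left out, and for crizotinib against control 6435 became 3138 to 7975. For the interaction 12 became 1917 without both number 2 libraries, 299 without the filter, 64 with DESeq2, 23 with the block and 2 to 805 with each library left out. The cause of these moves was not tested. Apart from EGR1 for the combination against crizotinib, the block changed no member call. Depth limits EGR2 and EGR3, and library totals moved NAB2 by up to 0.18.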
